A study of Mus musculus with 4 samples.

Results

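The 39 genes described here encode the enzymes and scaffold proteins that write, erase or read chemical marks on DNA and histones, slide nucleosomes or fold the chromatin fibre. They were chosen by function and stand among 21755 protein coding genes on the 19 autosomes and chromosome X. For each gene, the open regions that overlapped the gene body or the 5 kb on either side were taken from ATAC-seq peak lists of mouse hematopoietic stem cells. That gave 127 of the 45475 open regions in the lists, and no region belonged to more than 1 member.

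In ATAC-seq, a transposase inserts adapters into DNA that is not covered by nucleosomes, so a peak marks an open stretch. The cells were bone marrow hematopoietic stem cells sorted from adult C57BL/6 mice. The labels give the gate as LSK CD150+CD34-CD48-, and the methods for this assay give it without CD34. The WT animals carried floxed Med23, a subunit of the mediator complex, and no cre, and the KO animals carried the same floxed gene with Mx1-cre. Mx1-cre answers to interferon, was induced with poly(I:C), and is also active outside stem cells, so the deletion was not limited to the sorted population. The labels give 2 samples per genotype, but both samples of a genotype point to the same peak list. Every comparison thus set 1 WT list against 1 KO list, no difference has a replicate check, and fewer open cells and less open chromatin per cell cannot be told apart.

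In blood stem cells, the DNA methyltransferase Dnmt3a and the dioxygenase Tet2 act on cytosine methylation and restrain self-renewal, and both genes are recurrently mutated in clonal hematopoiesis. Polycomb complexes keep lineage genes silent through histone methylation and ubiquitination, and the polycomb subunit Bmi1 is needed for the self-renewal of adult stem cells. The ASXL proteins, the trithorax-type methyltransferases, the acetyltransferases, the BAF remodelling complex and cohesin act on enhancers and promoters, and several of their genes are altered in myeloid malignancy.

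Nearly all members were open at a start of the gene, and a few genes held many of the intronic regions. Values below are pileups, the number of fragments or reads stacked at the summit of a peak, recovered from the fold enrichment and p-value in the lists. The sequences shown are those of the intronic regions with the highest fold enrichment, the intronic regions with the highest and the lowest KO to WT ratio, the intronic peak with the highest fold enrichment in each list alone, and the promoters with the lowest and the highest ratio. They were read from RefSeq's GRCm38.p6 assembly, the build of the lists. Intronic windows are 200 bp of the plus strand around the summit, that of the WT list where the region has a WT peak. At the first Dnmt3a intron and the Arid1b intron with the highest ratio, the KO summit lay 293 and 138 bp away, outside the window. The promoter sequences are the 150 bp upstream of a start site on the strand of the gene. Capitals mark a match, on either strand, to 1 of 12 short motifs spelled out further on.

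The 3 intronic regions with the highest fold enrichment lie 49853 and 65158 bp from the 5′ end of Dnmt3a, at chr12:3855761-3855960 and chr12:3871066-3871265, and 77246 bp from the 5′ end of Tet3, at chr6:83381739-83381938.
Dnmt3a intron, first: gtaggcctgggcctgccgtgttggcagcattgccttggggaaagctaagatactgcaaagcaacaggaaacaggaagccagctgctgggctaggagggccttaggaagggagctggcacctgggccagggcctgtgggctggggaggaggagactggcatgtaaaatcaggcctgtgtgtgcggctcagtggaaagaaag
Dnmt3a intron, second: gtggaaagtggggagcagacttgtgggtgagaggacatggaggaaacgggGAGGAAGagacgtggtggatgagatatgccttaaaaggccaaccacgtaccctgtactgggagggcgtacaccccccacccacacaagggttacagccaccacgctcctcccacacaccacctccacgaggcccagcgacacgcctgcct
Tet3 intron: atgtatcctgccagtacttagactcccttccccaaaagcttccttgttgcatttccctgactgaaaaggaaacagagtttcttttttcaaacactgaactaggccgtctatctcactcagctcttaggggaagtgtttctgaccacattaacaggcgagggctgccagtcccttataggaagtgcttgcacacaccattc

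The intronic regions with the highest and the lowest KO to WT ratio lie in Arid1b at chr17:5034157-5034356 and in Chd4 at chr6:125099407-125099606.
Arid1b intron, highest ratio: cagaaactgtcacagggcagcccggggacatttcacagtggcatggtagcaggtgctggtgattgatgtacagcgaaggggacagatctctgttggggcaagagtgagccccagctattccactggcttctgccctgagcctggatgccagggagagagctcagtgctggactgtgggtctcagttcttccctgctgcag
Chd4 intron, lowest ratio: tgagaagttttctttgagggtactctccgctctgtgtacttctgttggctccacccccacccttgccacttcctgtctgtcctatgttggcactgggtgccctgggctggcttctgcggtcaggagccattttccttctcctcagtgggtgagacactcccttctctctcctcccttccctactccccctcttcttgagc

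The intronic peaks with the highest fold enrichment in 1 list alone lie in Arid1b at chr17:5063835-5064034, in the WT list, and in Kmt2d at chr15:98867481-98867680, in the KO list.
Arid1b intron, WT list only: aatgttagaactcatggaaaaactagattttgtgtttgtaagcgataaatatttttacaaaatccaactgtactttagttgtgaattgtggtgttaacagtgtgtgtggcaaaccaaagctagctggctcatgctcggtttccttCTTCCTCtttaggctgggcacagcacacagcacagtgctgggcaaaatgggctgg
Kmt2d intron, KO list only: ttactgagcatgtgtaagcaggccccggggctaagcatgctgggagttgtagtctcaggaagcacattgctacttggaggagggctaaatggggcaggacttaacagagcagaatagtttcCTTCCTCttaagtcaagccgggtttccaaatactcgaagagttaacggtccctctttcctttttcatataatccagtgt

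The promoter with the lowest ratio lies upstream of an internal Arid1a start, at chr4:133753983-133754132 on the minus strand, and that with the highest ratio upstream of the first Bmi1 start, at chr2:18676868-18677017 on the plus strand.
Arid1a promoter: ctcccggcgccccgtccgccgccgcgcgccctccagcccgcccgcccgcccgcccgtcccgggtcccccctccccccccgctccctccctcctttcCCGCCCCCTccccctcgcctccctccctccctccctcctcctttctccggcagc
Bmi1 promoter: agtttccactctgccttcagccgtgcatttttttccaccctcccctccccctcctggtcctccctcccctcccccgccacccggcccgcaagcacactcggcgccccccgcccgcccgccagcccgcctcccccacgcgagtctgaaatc

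The cells were checked against markers. A promoter peak, with its summit within 1000 bp of an annotated transcript start, was present in both lists at 5 of 8 stem cell genes (Kit, Mecom, Hlf, Gata2 and Tal1) and absent at Ly6a, Slamf1 and Procr. None of the 3 B cell, 3 T cell or 3 granulocyte markers had one in either list. Of the 3 stroma and endothelium genes, Cxcl12 and Cdh5 had one in the WT list only, and Lepr had none in either list. The part of these markers in the values below was not tested. The recovered pileup had a median of 18 over the 37887 WT peaks and 19 over the 37615 KO peaks of the 20 chromosomes. The genome-wide background, taken as the median of the 1000 lowest local backgrounds recovered for the peaks of a list, was 1.19 (WT) and 1.13 (KO). Of all regions, 64.8% were in both lists.

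Of the 39 members, 36 had a promoter peak in the WT list (92.3%, against 61.1% of all protein coding genes), and 37 had one in KO (94.9%, against 60.8%). Arid2, a targeting subunit of the PBAF remodeller, and Kdm6b, which removes methyl groups from histone H3 lysine 27, had none in either list. At Arid2 the peak lay 1775 bp upstream of the start and its broad region, chr15:96285039-96287731, reached the start itself, with pileups of 73 in WT and 55 in KO. At Kdm6b, strong regions lay 5381 bp upstream of the 5′ end (49 and 46) and 4898 bp downstream of it (39 and 32). Kmt2d, which methylates histone H3 lysine 4 at enhancers, differed between the lists only because the summit of the same region moved across the limit. It lay 1054 bp upstream of the start in WT and 800 bp in KO, with pileups of 25 and 21. The start of Arid2 was thus covered by a peak in both lists. The Kmt2d region, chr15:98871487-98872552, was open in both lists and ended upstream of the start at 98871204. The missing calls of both genes rest on where the summit fell.

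The 127 regions were made up of 50 at a start of the member itself, 15 at the start of another gene, 48 in introns, 4 in exons and 10 in the flanks. Of the members, 13 had no region other than the one at their own start, and 18 had a region in an intron. The genes with the most regions were Arid1b with 20, Tet3 with 8, Dnmt3a with 7 and Tet1 and Dot1l with 6 each. The polycomb genes were at the other end, since all 4 PRC2 subunits and 2 of the 4 PRC1 subunits had 1 region each.

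**Figure D1:**
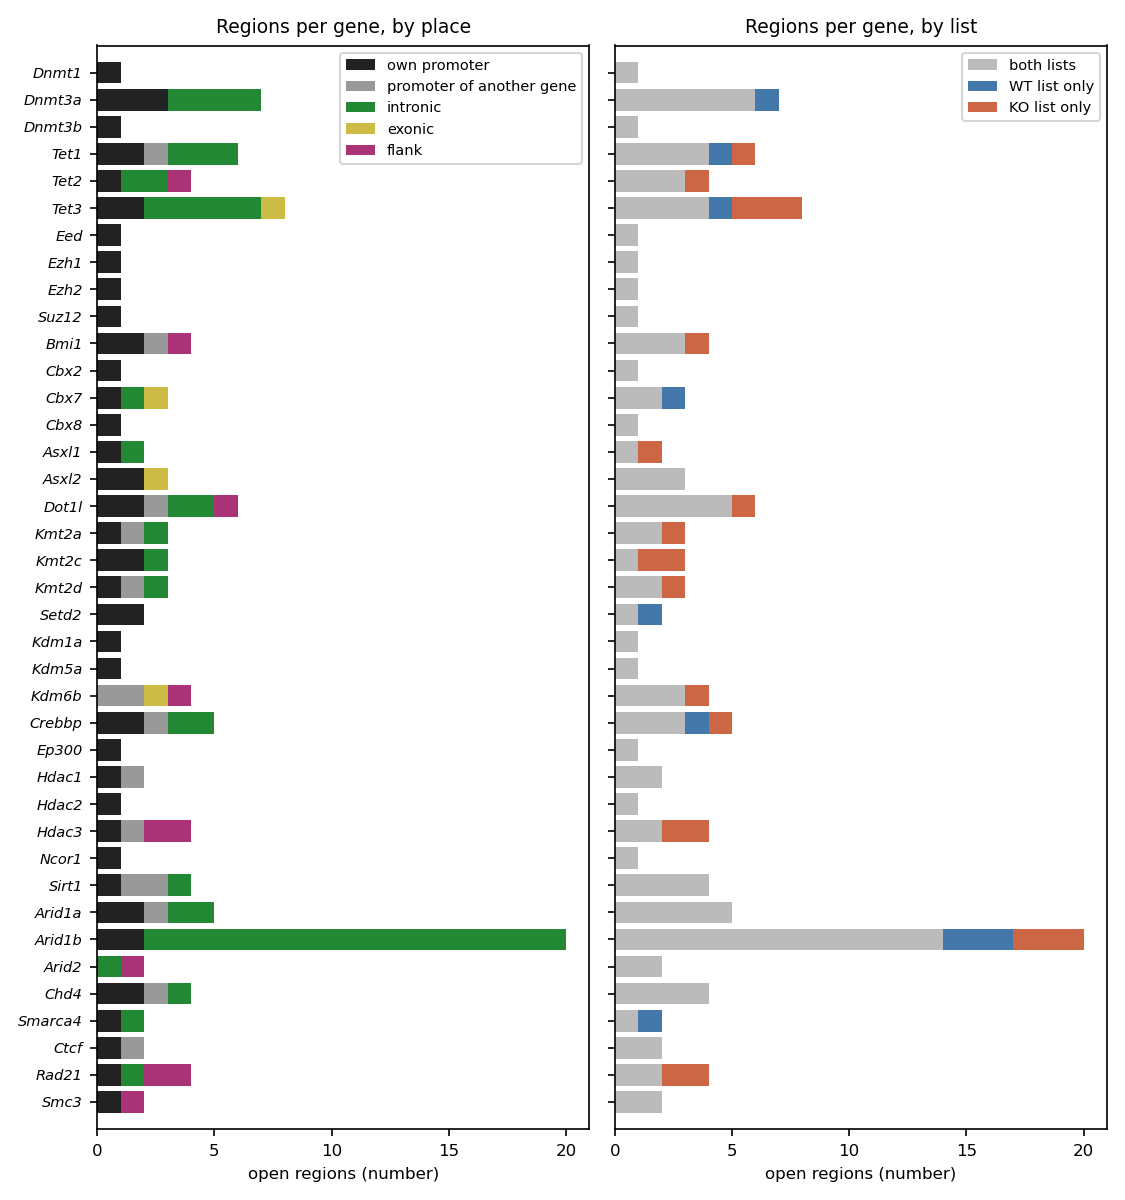
Number of open regions at each of the 39 genes (horizontal axis), grouped from top to bottom by function. The left panel colours the bars by place relative to annotated genes and the right panel by the list that holds the region. Arid1b has 20 regions, 18 of them in introns, while 13 genes have only the region at their own start, and grey (both lists) makes up most bars.

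The pileup at the strongest own promoter region found in both lists ranged from 13 to 132 in WT, with a median of 36, and from 9 to 123 in KO, with a median of 38. Of the 37 genes with such a region, 19 had the higher pileup in KO, 13 the lower and 5 the same. These are raw pileups, whose median log2 KO to WT ratio over all promoter regions with 1 peak of each list was 0.02. Over background and over shared regions of every place, the median ratio was 1.12, which is not on the scale of these counts.

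**Figure D2:**
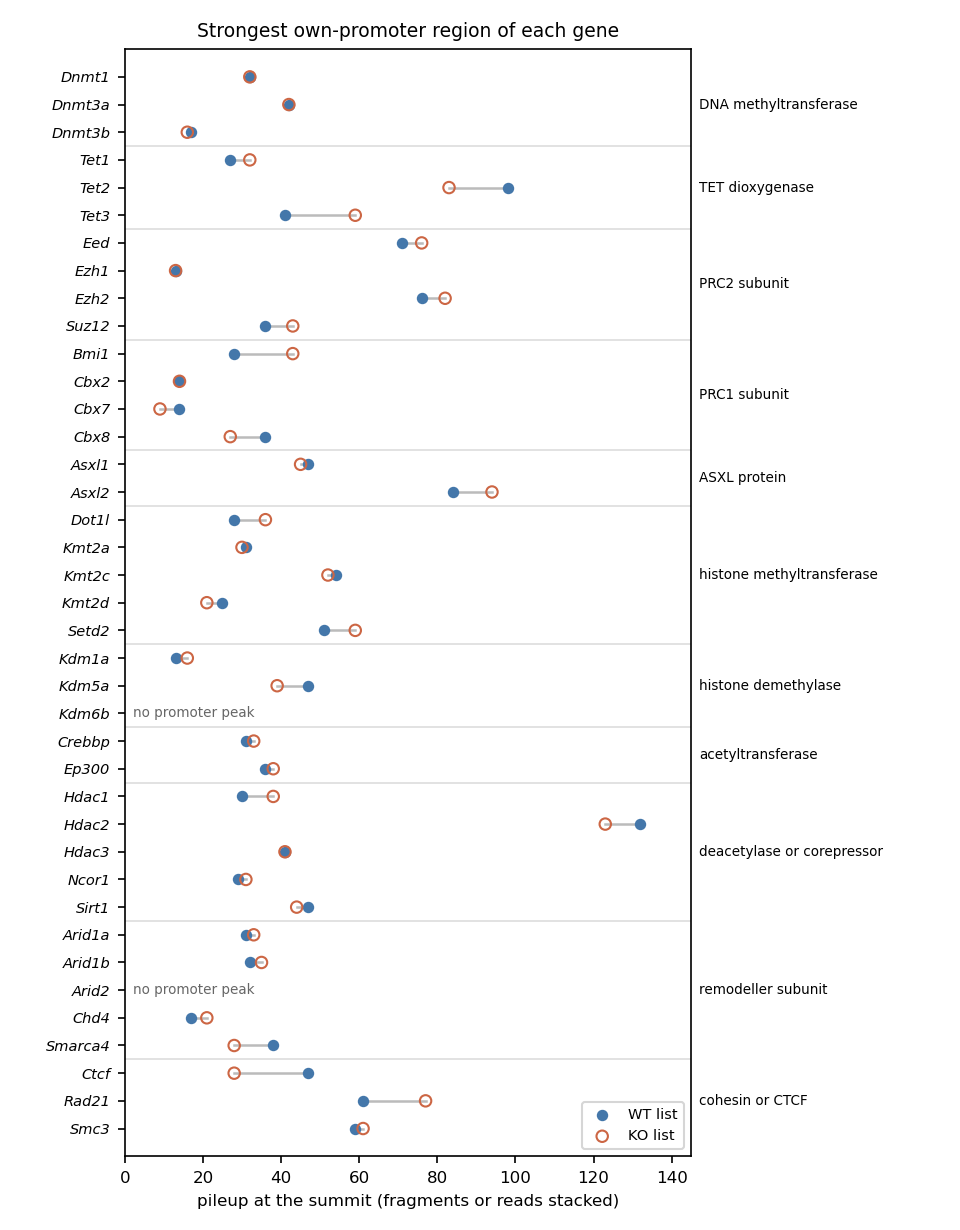
Pileup at the summit (horizontal axis, stacked fragments or reads) of the strongest own promoter region of each gene, filled circles for the WT list and open circles for the KO list, grouped by function. Hdac2 has the highest pileups (132 and 123) and Cbx7, Ezh1, Cbx2, Kdm1a and Dnmt3b the lowest, and for most genes the circles lie close together.

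The 3 DNA methyltransferase genes opened in different ways. Dnmt1, which copies methylation to the new strand after replication, had 1 region, at its downstream start 6909 bp from the 5′ end, with a pileup of 32 in both lists, and no peak at the 5′-most start. Dnmt3b, a de novo methyltransferase, also had 1, with pileups of 17 and 16. Dnmt3a (ENSMUSG00000020661.15, chr12:3806007-3914443, plus strand), the main de novo methyltransferase of stem cells, had 7. Near its 5′ end it had pileups of 36 in WT and 30 in KO, and the region at its downstream start, 85721 bp into the gene, held 2 WT peaks and 1 KO peak. A WT peak with a pileup of 27 had its summit 283 bp from that start. The other WT peak and the KO peak, both with a pileup of 42, had summits 1117 and 1118 bp away, so it counted as an open start in the WT list alone. The intronic regions of Dnmt3a whose sequences are shown above exceeded its promoters, with pileups of 79 in WT and 113 in KO for the first and 76 and 94 for the second. They ranked at percentiles 97.4 and 92.5 of fold enrichment in the WT list. The log2 KO to WT ratio, over background, was 0.60 (95% interval 0.17 to 1.04) for the first and 0.39 (−0.06 to 0.85) for the second, and neither lay 1.5-fold above the median of all shared regions.

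The TET genes, whose products oxidise methylcytosine, had 18 regions, of which 11 were shared, 2 were WT-only (11.1%, against 18.1% of all regions) and 5 KO-only (27.8%, against 17.2%). Tet2 had a strong promoter, with pileups of 98 in WT and 83 in KO, and weak intronic regions (9 and 12 for the shared one). Tet1 had no peak within 1000 bp of the starts of its coding transcripts of the basic set, and its 2 own promoter regions, with pileups of 24 and 18 and of 27 and 32, lay at the starts of other transcripts. Tet3 (ENSMUSG00000034832.15, chr6:83362373-83459084, minus strand) was open at both coding starts. The upstream start, 2692 bp from the 5′ end, had pileups of 36 in WT and 31 in KO, and the downstream start, 17409 bp from it, had 41 and 59. Its log2 ratios were −0.13 (−0.87 to 0.60) at the upstream start and 0.61 (0.01 to 1.22) at the downstream start, and these intervals overlap.

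**Figure D3:**
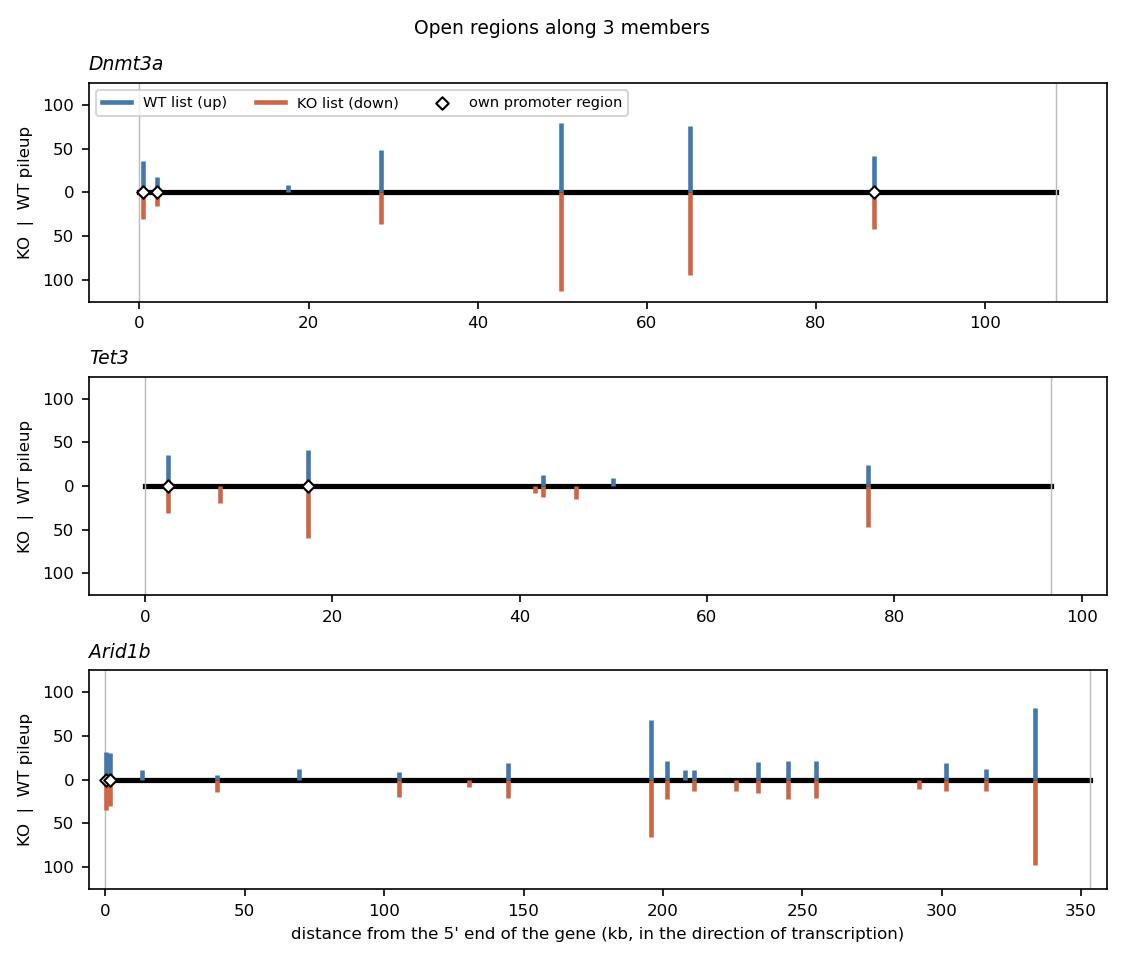
Open regions along Dnmt3a, Tet3 and Arid1b, placed by distance from the 5′ end of the gene (horizontal axis, kb), with the pileup in the WT list drawn upwards and in the KO list downwards and diamonds at own promoter regions. The tallest bars of Dnmt3a (79 and 113) and Arid1b (82 and 98) lie inside the gene, and bars on 1 side only mark regions in a single list, all of them short.

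Among the polycomb genes, the PRC2 subunits Ezh2 (76 in WT, 82 in KO), Eed (71 and 76) and Suz12 (36 and 43) had strong promoters, while Ezh1, the second catalytic subunit, had 13 in both. Ezh2 and Eed were among the 5 own promoters with the highest mean fold enrichment, together with Hdac2 (132 and 123), Smc3 (59 and 61) and Setd2 (51 and 59). Of the PRC1 genes, the promoter pileups were 14 in both lists at Cbx2, 14 and 9 at Cbx7 and 36 and 27 at Cbx8. Bmi1 had pileups of 28 in WT and 43 in KO at its first start, a log2 ratio of 0.70 (−0.02 to 1.45), the highest of the own promoters. The neighbouring start of Commd3, 4767 bp upstream of the 5′ end of Bmi1, had 30 and 46. A second Bmi1 start, 3354 bp downstream, had a summit within 1000 bp only in the KO list. The KO peak near it had a pileup of 21. The pileup at the first Bmi1 start and at the Commd3 start was thus higher in KO, and neither passed 1.5-fold relative to the median of all shared regions. By the deposited fold enrichments, the first Bmi1 start did, at 0.65 above the median on the log2 scale. The ASXL genes, whose products partner the deubiquitinase Bap1, had promoters of 47 and 45 (Asxl1) and 84 and 94 (Asxl2).

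The histone methyltransferase genes held 17 regions, 11 shared, 1 WT-only (5.88%, against 18.1% of all regions) and 5 KO-only (29.4%, against 17.2%). At the promoters, Kmt2a, which methylates histone H3 lysine 4 at the Hox genes, had 31 in WT and 30 in KO. Kmt2c, which acts at enhancers, had 54 and 52. Setd2, the lysine 36 methyltransferase, had 51 and 59, and Dot1l, the lysine 79 methyltransferase, had 28 and 36. Each of Kmt2a, Kmt2c, Kmt2d and Dot1l had an intronic region in the KO list only, with pileups of 18, 9, 21 and 18. Kmt2c also had a KO peak of 15 close to its start, and the peak in the WT list only was at an internal Setd2 start (10). Of the demethylase genes, Kdm1a had 13 and 16 and Kdm5a 47 and 39, with no further region at either.

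The acetyltransferase genes Ep300 (36 in WT, 38 in KO) and Crebbp (31 and 33) encode coactivators that place enhancer acetylation. At their own promoter regions found in both lists they differed by few stacked reads. Crebbp also had a WT-only region 98 bp from a start, chr16:4212786-4213399 (19). Beside it, without overlap, lay a KO-only intronic region, chr16:4212384-4212710 (12). Among deacetylase and corepressor genes, Hdac1 had 30 and 38, Hdac3 41 and 41 and the corepressor Ncor1 29 and 31, with Hdac2 given above. Sirt1, a NAD-dependent deacetylase, had 47 and 44 at a start 42669 bp from the 5′ end. At its 5′-most start the nearest summits lay 1119 and 1086 bp away, closer to a start of Dnajc12. The region that holds these summits covers the 5′-most Sirt1 start in both lists, and is counted here at Dnajc12.

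The remodeller genes held 33 regions, of which 26 were in both lists (78.8%, against 64.8% of all regions). A further 4 were WT-only (12.1%, against 18.1%) and 3 KO-only (9.09%, against 17.2%). Smarca4, the ATPase of the BAF complex, had a promoter of 38 in WT and 28 in KO, and Chd4, the ATPase of the NuRD complex, had 17 and 21 and, 1 kb further in, 18 and 16. Both Chd4 regions and those of Cbx7, Bmi1 and, next to the first Dnmt3a start, Dnmt3a (17 and 16) were the 5 with the lowest mean fold enrichment among own promoters in both lists. Arid1a, a defining subunit of the canonical BAF complex, had 31 and 33 at its 5′ start. Arid1b (ENSMUSG00000069729.14, chr17:4994332-5347656, plus strand), its paralog, had pileups of 32 and 35 and of 31 and 30 at its starts and 18 intronic regions over 353 kb, or 5.09 per 100 kb. The density was 5.17 per 100 kb at Tet3 and 4.97 at Dot1l. The intronic regions of Arid1b with the highest fold enrichment were 333568 bp (82 in WT, 98 in KO) and 195569 bp (68 and 66) from the 5′ end. Of its 18, 12 were shared, 3 WT-only and 3 KO-only, where 23.4% of all intronic regions were WT-only and 23.4% KO-only. The cohesin genes Smc3 (59 and 61) and Rad21 (61 and 77) and the insulator gene Ctcf (47 and 28) each had 1 own promoter region, and a Rad21 intron had 21 and 36.

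Members' promoter peaks were nearly always in both lists. At promoters of any gene in the members' windows, 57 of 60 WT peaks overlapped a KO peak by at least 1 bp, or 95% (95% Wilson interval 86.3 to 98.3), so 3 did not, and 8.97% of all WT promoter peaks did not. Of the KO promoter peaks, 59 of 62 overlapped a WT peak, or 95.2% (86.7 to 98.3), and 8.43% of all KO promoter peaks had no overlap. In introns, 30 of 36 WT peaks overlapped a KO peak, or 83.3% (68.1 to 92.1), and 31 of 44 KO peaks a WT peak, or 70.5% (55.8 to 81.8), where 30.0% of all WT and 30.0% of all KO intronic peaks had no overlap. The WT interval held the share over all intronic peaks only near its lower end and the KO interval near its middle. These intervals cover counting error over peaks, and peaks are not replicates. The intronic peaks of the members also differed in strength from all intronic peaks. Their median percentile of fold enrichment was 51.8 in the WT list (all intronic peaks, 39.9) and 32.8 in the KO list (all, 40.7).

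Counted as regions, 96 were shared by both lists, or 75.6%. A further 10 were WT-only (7.87%, against 18.1% of all regions) and 21 KO-only (16.5%, against 17.2%). Of the 65 regions at promoters, 3 were WT-only (4.62%, against 8.25% of all promoter regions) and 3 KO-only (4.62%, against 7.74%). Of the 48 intronic regions, 6 were WT-only (12.5%, against 23.4% of all intronic regions) and 13 KO-only (27.1%, against 23.4%). Without Arid1b, which alone held 37.5% of them, 17 of the other 30 were shared, 3 WT-only and 10 KO-only. Over all intronic regions, 23.4% were WT-only and 23.4% KO-only. Taken over all places together, the members' KO-only share was thus close to that of all regions, and their WT-only share was lower.

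Regions in 1 list were weak. Their pileups ran from 7 to 23 with a median of 12, and their fold enrichment ranked at a median percentile of 10.2 in their own list and at most at 33.6. In the WT list only, the highest fold enrichments were at a start of Gm48353 inside Tet1 (pileup 11), at the internal Setd2 start (10), at 2 Arid1b introns (12 and 11) and 98 bp from a Crebbp start (19). In the KO list only, they were at introns of Kmt2d (21), Tet3 (19), Dot1l (18), Arid1b (11) and Asxl1 (13).

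The strength of the shared regions was compared by the ratio of the KO to the WT pileup, each over the background of its list, which could be formed in 93 regions with 1 peak of each list. The median log2 ratio was 0.09 over the 56 regions at promoters, against 0.10 over all promoter regions, and 0.23 over the 29 in introns, against 0.23 over all intronic regions. Relative to the median of all shared regions (0.17), 44 member regions lay above and 49 below. By role, the medians relative to it ranged from −0.17 for the demethylases, with 5 regions, to 0.32 for cohesin and Ctcf, with 6. The members' medians were thus close to those of other open regions of the same kind.

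**Figure D4:**
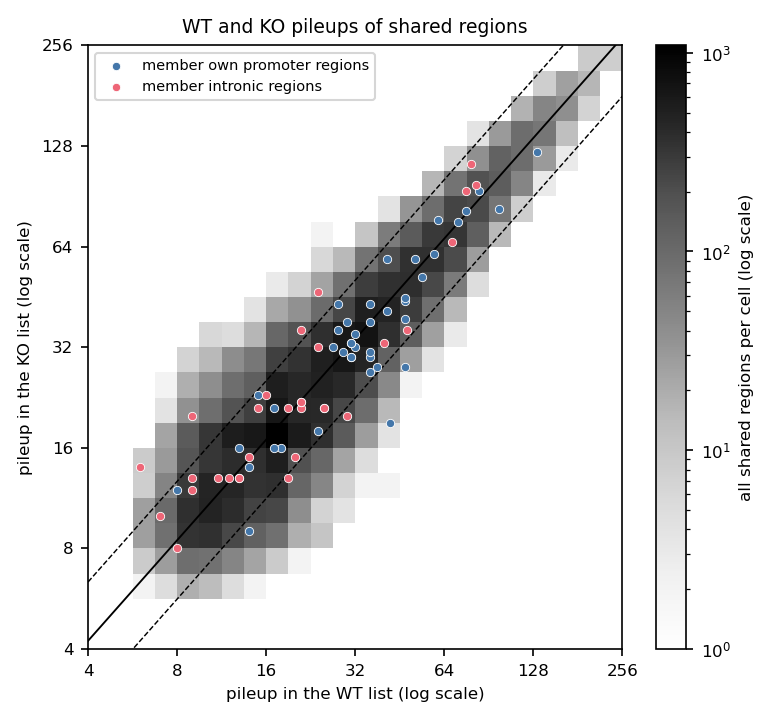
Pileup in the WT list (horizontal) against the KO list (vertical), both on a log scale, with all shared regions as grey cells and the members' own promoter (blue) and intronic (red) regions as points. The solid line is the median ratio of all shared regions and the dashed lines lie 1.5-fold from it. All but a few member points lie between the dashed lines.

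In the KO direction, 4 of the 93 regions lay more than 1.5-fold above that median (4.30%, against 7.64% of all shared regions), and 7 lay more than 1.5-fold below it (7.53%, against 7.91%). All 4 higher regions were in introns, at Tet3, Rad21 and, at 2 places, Arid1b. The 7 lower regions were at own promoters of Arid1a, Ctcf and Cbx7, at the starts of Pigv and Dnajc12 near Arid1a and Sirt1, and in introns of Chd4 and Arid1b. By the ratio of the deposited fold enrichments, which divides by the local background in place of the genome-wide one, 4 regions were higher and 4 lower (4.30% each, against 3.14% and 6.05% of all shared regions), and 5 of the 11 regions just named remained past 1.5-fold. The 4 higher by that ratio were both Arid1b introns, the 5′ Arid1a start (0.72 above the median on the log2 scale) and the first Bmi1 start (0.65). The 4 lower were the Cbx7 promoter (−0.82), the Dnajc12 start near Sirt1 (−0.64), the Arid1b intron (−0.59) and a Tet1 intron (−0.59).

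By place, 0 of the 56 promoter regions were higher past 1.5-fold (against 3.96% of all promoter regions) and 5 were lower (against 7.99%). Of the 29 intronic regions, 4 were higher (against 10.9% of all intronic regions) and 2 lower (against 7.61%). By the deposited fold enrichments, 2 of the 56 promoter regions were higher and 2 lower, as were 2 and 2 of the 29 intronic regions. By that ratio, 3.14% of all shared regions were higher and 6.05% lower, and their split by place is not given here.

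The 95% counting interval left out the median in 1 higher region (1.08%, against 1.68% of all shared regions) and 3 lower ones (3.23%, against 1.29%). The higher one was 1 of the 29 intronic regions, where 2.39% of all intronic regions passed in this direction, and 0 intronic regions were lower (against 0.912%). The 3 lower ones were among the 56 promoter regions, where 1.70% of all promoter regions passed, and 0 promoter regions were higher (against 1.10%). The higher one was the Tet3 intron shown above, chr6:83381654-83382139, with pileups of 24 in WT and 47 in KO and a log2 ratio of 1.06 (0.32 to 1.83). It was 1.85-fold higher than the median ratio. Its local background was also higher in KO, at 2.47 against 1.54, and by the deposited fold enrichments it lay 0.23 above the median on the log2 scale.

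The lowest of the 93 was the internal Arid1a start, chr4:133754002-133754531, with pileups of 42 in WT and 19 in KO and a log2 ratio of −1.06 (−1.92 to −0.25), or 0.428 times the median ratio. Its local background was 6.87 in WT and 3.31 in KO. At the 5′-most Arid1a start the pileups were 31 and 33. The Ctcf promoter, chr8:105636047-105637578, had 47 and 28 and a log2 ratio of −0.66 (−1.39 to 0.04). The third was the start of Dnajc12 next to Sirt1, chr10:63381622-63382923, with 43 and 27 and a log2 ratio of −0.59 (−1.34 to 0.14). That region also covers the 5′-most Sirt1 start. By the deposited fold enrichments, only the region at Dnajc12 stayed past 1.5-fold of these 4, at −0.64 relative to the median, with −0.50 at Arid1a and −0.31 at Ctcf. The Arid1a, Ctcf and Tet3 calls thus depend on which background is used.

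**Figure D5:**
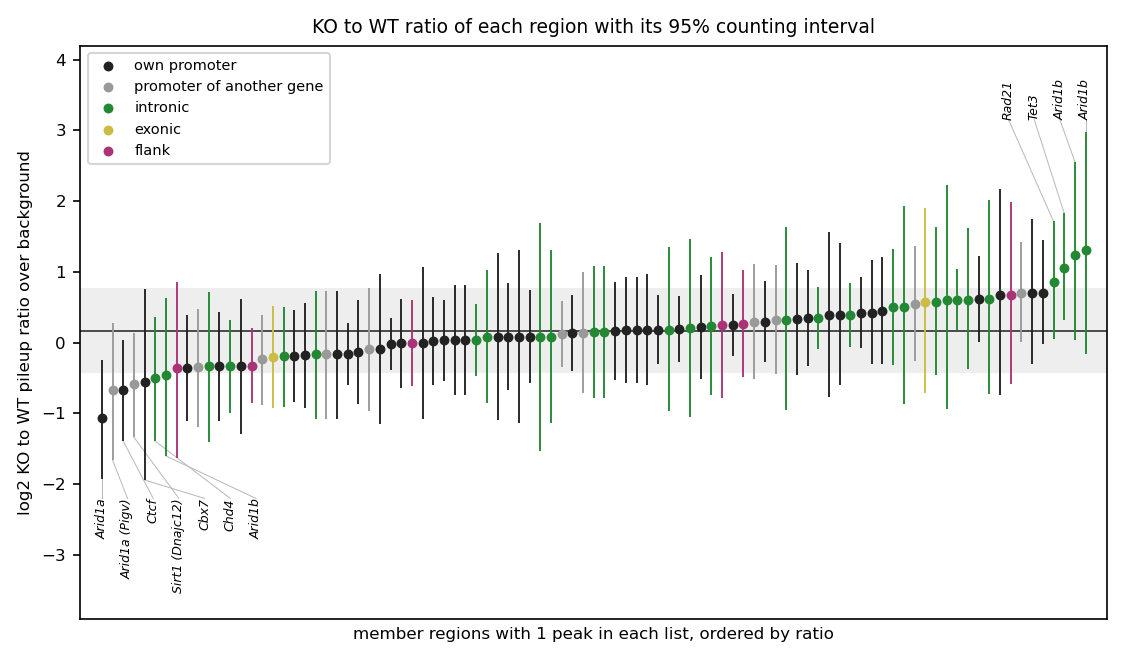
The log2 ratio of KO to WT pileup, each over background (vertical axis), of the 93 member regions with 1 peak in each list, in rising order, with 95% exact binomial intervals, coloured by place. The line is the median of all shared regions, 0.17, and the grey band 1.5-fold on either side, and the 11 regions outside the band carry the gene name, with the neighbouring gene in brackets where the start is not the member's own.

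Summits of the same region did not always coincide. In 33 of the 93 regions they were more than 100 bp apart between the lists, so that the ratio there sets side by side different points of 1 region. The median gap was 51.5 bp at own promoters and 31 bp in introns.

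WT peaks covered 90001 bases of the members' windows and KO peaks 95397, which is 5396 more in KO, or 6.00% of the WT figure, where over all peaks the KO figure was −1.46% relative to WT. In KO, 29 of 39 genes had more covered bases (74.4%, against 49.5% of all protein coding genes with a peak in the window) and 10 had fewer. The largest gains were at Rad21 (1294 bases), Kmt2a (1187), Tet3 (757) and Kmt2c (739), and the largest loss at Cbx7 (−952). With peaks at a −log10 q of at least 5, the members' difference was 6685 of 81131 WT bases (8.24%), against 4.86% over all peaks. With the limit at 10, the difference was 5697 of 67797 (8.40%), against 10.4% over all peaks, so the members then lay below all peaks. The value that the members are read against changed sign with the limit on q.

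The windows around the summits, set on the WT summit where the region has one, show what the regions share in sequence. Over the 50 own promoter windows of 200 bp, the median GC content was 69.5% (44.0 to 81.5), against 63.0% over all promoter regions. The observed to expected ratio of the CpG dinucleotide was 0.92, against 0.74. Over the 48 intronic windows, the values were 49.2% (39 to 72) and 0.23, against 48.5% and 0.22, so the members' introns were close to other intronic regions and their promoters were richer in CpG.

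Of the motifs searched on both strands, the SP/KLF motif GGGGCGG was in 27 own promoter windows (54.0%, against 30.4% of all promoter regions). A short form of the CTCF motif, AGGGGGC, was in 13 (26.0%, against 11.3%). This motif can share letters with the SP/KLF motif, as it does in the Arid1a sequence above. The E-box CACGTG was in 7 (14%, against 6.67%) and the YY1 motif AAGATGG in 6 (12%, against 4.10%). The ETS motif CCGGAAG was in 4 (8.00%, against 10.8%), as was the NFY motif CCAATCA (8.00%, against 7.40%). The NRF1 motif GCGCATG was in 3 (6.00%, against 4.02%) and the CRE motif TGACGTC in 2 (4.00%, against 3.67%). The SP/KLF and CTCF motifs are rich in G and C, as the members' promoter windows were. The part of base composition in these shares was not tested.

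In the 48 intronic windows, the PU.1 motif GAGGAAG was in 9 (18.8%, against 20.4% of all intronic regions) and in 2 own promoters (4.00%, against 11.6%). It shares its last letters with the ETS motif. It is the match marked in the second Dnmt3a intron and in the peaks found in 1 list alone at Arid1b and Kmt2d. The RUNX motif TGTGGTT was in 2 intronic windows (4.17%, against 13.3%), the AP-1 motif TGANTCA in 4 (8.33%, against 10.3%) and the GATA motif AGATAAG in none (against 4.94%). None of these last 3 was in an own promoter window, against 3.91%, 4.01% and 1.39% of all promoter regions. A match describes letters and not a bound factor, and a window without one says only that these letters are absent from it.

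The same counts were made for other genes of these complexes. Of 104 genes taken from the same families, 95 had a promoter peak in WT and 94 in KO. Setd1b, Kat2a and Chd7 had one in WT only, and Mta1 and Nipbl, the cohesin loader, in KO only. Their windows held 299 regions, 207 shared (69.2%), 46 WT-only (15.4%, against 18.1% of all regions) and 46 KO-only (15.4%, against 17.2%). Of the 202 with 1 peak of each list, 8 lay more than 1.5-fold above the median of all shared regions (3.96%, against 7.64% of them) and 14 below it (6.93%, against 7.91%). The interval left the median out in 3 of the higher regions (1.49%, against 1.68% of all shared regions) and 5 of the lower (2.48%, against 1.29%).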

How the data were processed

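Hematopoietic stem cells of 4 samples, 2 per genotype, were profiled by ATAC-seq. By their account, the authors ran trim_galore on the reads, Bowtie2 against mm10, Picard to take out duplicate and mitochondrial reads, and MACS2 without a fragment model to find peaks. Versions are not given in the sources used here, nor is whether both samples of a genotype were pooled. Each deposited list gives the authors' fold enrichment of the summit over local background (a ratio), their −log10 p and −log10 q, the summit position, and a display score, which was not used. The deposited summit lists were identical to the peak lists in summit position and −log10 q.

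The members, gene lists, motifs and alternatives were chosen with earlier results of these data known. Depth is unknown, because the lists hold no read counts. A whole-number pileup and local background were solved for each peak from fold enrichment and −log10 p under the caller's Poisson model (tolerance 0.001, met by all 37887 WT and 37615 KO peaks used). The genome-wide background was the median of the 1000 lowest local backgrounds per list. Regions were unions of overlapping peaks. A region with 1 peak of each list received a log2 ratio of KO to WT pileup, each over the genome-wide background, without pseudocount, and its exact 95% binomial interval, which covers counting error only. A region counted as higher or lower past 1.5-fold from the median ratio of all such regions.

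Starts, genes and exons came from GENCODE M21. A region was at an own promoter when a summit lay within 1000 bp of a start of the member, and otherwise at the promoter of another gene, in an exon, in an intron or in the 5 kb flank. Sequences came from RefSeq GRCm38.p6, and 0 peaks lay beyond a chromosome end. Of the members, 32 are in RefSeq's promoter table. All members are named; full values are given for the 5 highest and 5 lowest own promoters by mean fold enrichment, regions past 1.5-fold whose interval leaves out the median, the 5 highest peaks in 1 list only, the 5 genes with most regions and members without a promoter peak. Sequence windows on chromosome 18 or touching an annotated UTR were passed over. The red cell marker list is not reported here. Python 3.11.15, numpy 2.4.6, pandas 2.3.3, scipy 1.17.1, matplotlib 3.10.9 and pysam 0.24.0 were used. The pileup recovery and intervals were tested on simulated data.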

Additional observations from a re-analysis of the deposited data

How the results depend on the processing

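Each result was recomputed under alternatives to the peaks used, the overlap, the promoter limit, the ratio and the gene window. No paired analysis was possible because the lists, 1 per genotype, carry no replicate number. Nor could a replicate be left out. Of the 68 recomputed values, 49 stayed close to the value reported (counts and covered bases within 1.5 times, shares within their Wilson interval, medians within counting error) and 19 moved. A turn in direction was looked for only in the covered-base difference, which stayed positive under each alternative. For the counts, shares and medians, no turn could be recorded. With peaks at a −log10 q of at least 5, the share of WT intronic peaks that overlap moved to 95.8% (all intronic peaks, 79.7%). The regions higher in KO moved to 2 (2.50%, against 5.86% of all shared regions). At a −log10 q of at least 10, the share of KO promoter peaks was 85.1% (all, 87.6%). The shares of intronic peaks were 84.2% in WT and 80.0% in KO (all, 83.7% and 62.2%). With that limit, 2 regions were higher and 2 lower (3.39% each, against 4.21% and 3.92% of all shared regions). A promoter peak was then present at 28 members (WT, 36 before) and 32 (KO, 37 before). The share of all protein coding genes was not computed at that limit, so the gap between these counts has nothing to be read against. When an overlap had to span 50% of both peaks, the shares were 83.3% and 83.9% for WT and KO promoter peaks (all, 81.6% and 81.9%) and 66.7% and 54.5% for intronic peaks (all, 56.4% and 56.0%). With summits within 100 bp, they were 60.0% and 58.1% for promoter peaks, below the 65.2% and 65.3% of all promoter peaks, and 61.1% and 50.0% for intronic peaks (all, 53.0% and 52.8%). With the deposited fold enrichments, the median log2 ratio at promoters was 0.30 (all promoter regions, 0.27). By that ratio, 4 regions were lower (4.30%, against 6.05% of all shared regions). With 2-fold in place of 1.5-fold, 2 regions were higher (2.15%, against 1.19% of all shared regions) and 1 lower (1.08%, against 0.962%). With no flank, the covered-base difference was 2572 (4.46% of the WT figure, against −1.46% over all peaks). With 20 kb on each side, 11 regions were lower (8.46%, against 7.91% of all shared regions). Counting error is widest where pileups are lowest, and the read depth behind them is unknown.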
